A study of Mus musculus with 37 samples.

Results

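Control cultures of 2 Tet2 knockdown experiments from one study of mouse neurons were compared with each other, without their knockdown partners. They are the 6 shLuciferase libraries that served as controls of a first Tet2 knockdown and the 6 shLuc libraries that served as controls of a second. They make 12 of the 37 libraries of the series, and they were chosen by their labels alone. The study measured polyA-selected RNA with strand-specific paired-end libraries in hippocampal neuronal nuclei and in cultured neurons in which Tet2, an enzyme that oxidizes 5-methylcytosine, was removed, knocked down or overexpressed. The question put here is how far the 2 sets, both meant as a baseline for the same gene, resemble each other.

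The shLuciferase cultures were primary neurons of C57/Bl6 embryos taken at day 17 of gestation (E17). They were infected with a lentivirus whose hairpin targets luciferase, a firefly enzyme that mouse cells lack, and their RNA was extracted with TRIzol. The shLuc cultures are labelled only as primary neurons grown in vitro and treated with shLuc, and their RNA was extracted with the Qiagen RNeasy kit. The labels give neither strain nor age for them. The column names of the second set carry the mark 3d, to which no meaning was assigned. The sets therefore differ in experiment, extraction kit and possibly in strain, age and time in culture, and these cannot be told apart. Nothing in the labels says whether the 6 libraries of a set came from separate cultures, so p-values measure only the spread between these libraries, which may be technical.

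Primary neuron cultures of the embryonic brain are mixtures. Neurons that have left the cell cycle extend neurites on tubulins, actin and growth-associated proteins. They then build synapses, exchange embryonic receptor subunits and channels for mature ones, and fire. Astrocytes, oligodendrocyte precursors and a few dividing progenitors come along from the tissue and can multiply. Firing switches on immediate early genes such as Fos, Arc and the Egr family within minutes, so their messages report recent activity or handling. Extraction and selection of RNA also leave their mark, because ribosomal RNA and broken or long messages are recovered to different degrees.

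The shLuciferase libraries held 3029938 to 43788798 assigned reads and the shLuc libraries 4785087 to 22781534, counted before the ribosomal RNA precursor Rn45s was left out. Rn45s took 1.46% to 4.17% of the reads in shLuciferase (2.71% ± 1.16, SD, n = 6) and 11.97% to 15.5% in shLuc (13.3% ± 1.30, SD, n = 6). Reads on transcripts longer than 4000 bases made up 32.7% to 38.2% in shLuciferase (36.1% ± 1.97, SD, n = 6) and 18.3% to 21.6% in shLuc (20.2% ± 1.25, SD, n = 6). Neither share overlapped between the sets, and each gave an exact two-sided permutation p of 0.00216, the smallest that splits of 6 and 6 libraries allow (0.00325 after Benjamini-Hochberg adjustment over 3 features). At equal depth, 14204 ± 585 genes in shLuciferase and 14433 ± 67.3 in shLuc had a read (SD, n = 6, exact permutation p = 0.39). Libraries of the first set were less alike: Spearman correlations across genes were 0.876 to 0.975 within shLuciferase, 0.973 to 0.990 within shLuc, and 0.799 to 0.869 between the sets. The median SD of a gene on the log2 scale was 0.477 in shLuciferase and 0.215 in shLuc. A further control set of 3 libraries labelled synGFP, also primary neurons and also extracted with the RNeasy kit, held 0.0607% to 0.411% Rn45s and 38.2% to 43.9% of reads on long transcripts. In both measures the synGFP libraries lay on the shLuciferase side of the shLuc libraries.

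**Figure D1:**
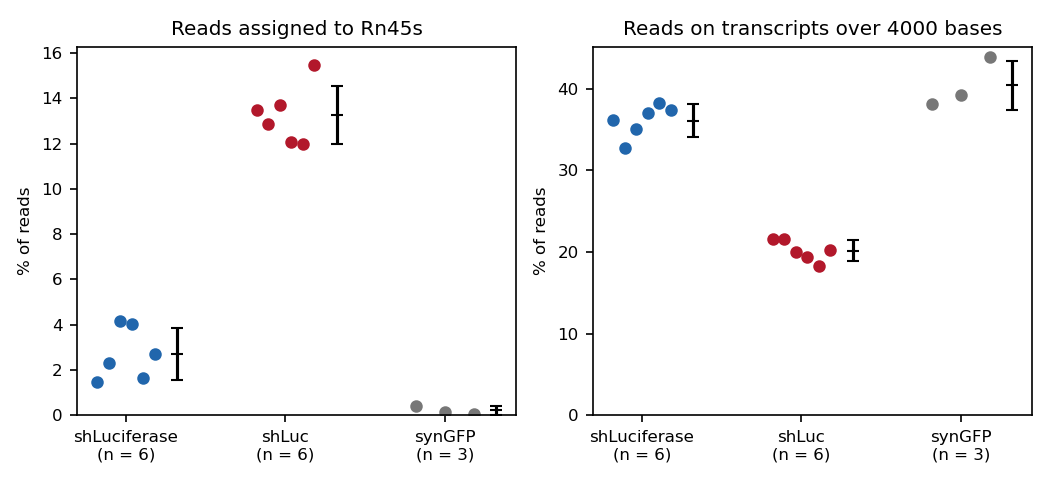
Percent of reads assigned to Rn45s (left) and percent of the remaining reads that fall on transcripts longer than 4000 bases (right). Each point is 1 library of the shLuciferase, shLuc or synGFP controls, and bars give the mean and SD of the set. The shLuc libraries stand at 11.97% Rn45s or more and at 21.6% long-transcript reads or less, apart from both other sets.

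Of 13270 genes tested, 8080 (60.9%) differed between the control sets at an adjusted p under 0.05, 4258 (32.1%) higher and 3822 (28.8%) lower in shLuc. Values are counts scaled to the library (CPM) recovered from the deposited values, and tests used limma on log2(CPM + 1) with Benjamini-Hochberg adjustment over all genes. A fold on this scale understates the difference of genes with low counts. Since so many genes passed, the lists below use a stricter call that also asks for a 2-fold difference. By that call 4478 genes (33.7%) differed, 2026 (15.3%) higher and 2452 (18.5%) lower in shLuc. Higher genes were thus 45.2% of the calls, but scaling by library totals in place of the trimmed mean moved the median of all genes by −0.33 on the log2 scale and left 1059 higher and 3522 lower, or 23.1% higher. For 5105 genes (38.5%) no library of one set reached the range of the other. The 15.3% higher and 18.5% lower over all genes are the background for the calls as measured in every list below.

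The differences followed transcript length. Genes with transcripts of up to 1000 bases had a median log2 change of 0.66 (shLuc minus shLuciferase throughout), those above 2000 and up to 4000 bases 0.25, and those over 8000 bases −0.92. Genes called lower had a median length of 5027 bases and genes called higher 2195.5 bases, against 3103 for the rest. Across the 12780 tested genes with a known length the Spearman correlation of log2 change with length was −0.51, given as a description across genes that share their libraries. After the trend of each library's values on length and GC content was removed, 3125 of 12780 genes (24.5%) passed the 2-fold call, 1495 higher (11.7%) and 1630 lower (12.8%). Values from this step are given beside those as measured, as "after length adjustment". The background for every list count after length adjustment is thus 11.7% higher and 12.8% lower. It takes out any difference that runs with length, whatever its source, and the source was not tested.

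**Figure D2:**
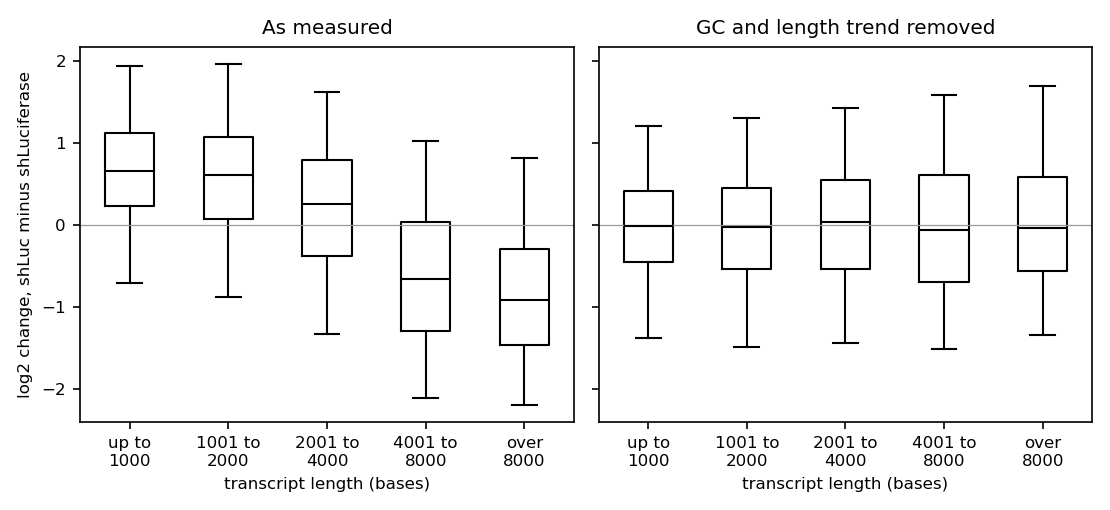
Log2 change of tested genes (shLuc minus shLuciferase) by transcript length in bases, as measured (left) and after the trend on length and GC content was removed per library (right). Boxes give the median and quartiles, whiskers the 5th to 95th percentile over genes. The medians fall from 0.66 to −0.92 with length on the left and stay near 0 on the right.

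The genes furthest apart included general housekeeping genes and synaptic genes. Gm10052, a processed pseudogene at chr9:123689233-123690192 (minus strand, GRCm38, GENCODE annotation), had 0 reads in all 6 shLuciferase libraries and 231 to 310.4 (median 277) CPM in shLuc, at least 8420-fold higher against a floor of 3 reads over the set. It has near-identical copies elsewhere in the genome, so its reads may be shared among them. Among genes without such copies, Bloc1s3, a subunit of a complex that builds lysosome-related organelles, had 0 to 1.58 (median 0.456) CPM in shLuciferase and 41.8 to 60.95 (median 53.2) in shLuc (log2 change 5.11 ± 0.28 SE, adjusted p = 8.43e-11). Raly, an RNA-binding protein, had 0 to 2.94 (median 1.63) and 43.6 to 80.4 (median 75.9) CPM (log2 change 5.08 ± 0.34 SE, adjusted p = 8.17e-10). Rnf187, a ubiquitin ligase on chr11:58932288-58938916, went from 57.8 to 204 (median 156) CPM to 1916 to 2529.8 (median 2298) CPM (log2 change 4.13 ± 0.24 SE, adjusted p = 1.3e-10), and Panx1, a large-pore membrane channel, from 1.75 to 15.4 (median 9.57) to 187 to 239.9 (median 214) (log2 change 4.53 ± 0.30 SE, adjusted p = 6.98e-10). The splicing protein gene Lsm4 and the translation initiation gene Eif3f were higher by 3.76 and 3.74 on the log2 scale. In each of these the lowest shLuc library lay above the highest shLuciferase library, as the choice of genes required. The genes of this and the next paragraph were picked only among 2-fold calls without overlap between the sets.

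In the other direction, Sv2b led. It encodes a synaptic vesicle glycoprotein and spans chr7:75114894-75309262 on the minus strand, and it had 215 to 588 (median 310.2) CPM in shLuciferase and 6.99 to 15.7 (median 12.2) in shLuc (log2 change −4.78 ± 0.23 SE, adjusted p = 1.15e-11). Dlg1, a synaptic scaffold protein, had 51.9 to 91.8 (median 63.5) against 2.21 to 6.28 (median 3.28) CPM (log2 change −3.91 ± 0.23 SE, adjusted p = 2.28e-10), and Braf, a kinase of the MAP kinase cascade, 117 to 220.1 (median 140.1) against 7.12 to 10.6 (median 10.2) CPM (log2 change −3.85 ± 0.18 SE, adjusted p = 6.74e-12). Arglu1 and Xpo1, which act in splicing and nuclear export, differed by −3.76 and −3.73 on the log2 scale. After length adjustment these 5 genes still differed by −2.98 (Xpo1) to −4.09 (Sv2b), all past the 2-fold call.

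The knockdown libraries of the same experiments gave the same contrast a second time without sharing a library with it. They are called knockdown after their labels, and their Tet2 levels are given further below. Between shTet2 of the first experiment (TRIzol) and Tet2 KD of the second (RNeasy), 5555 of 13481 genes (41.2%) passed the 2-fold call, 2502 (18.6%) higher and 3053 (22.6%) lower in Tet2 KD. Of the 2017 genes higher in shLuc that could be tested there, 1564 (77.5%) were also called higher in Tet2 KD and 1 was called lower. Of the 2432 genes lower in shLuc, 2017 (82.9%) were also called lower and 5 were called higher. The shared genes make up 62.5% of the higher and 66.1% of the lower calls in the knockdown libraries. In synGFP the median level was nearer to shLuciferase for 69.2% of the genes called higher and for 71.5% of those called lower. No such share was taken for genes not called, so these 2 have no background and no conclusion was drawn from them.

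Both sets carried neuronal messages. Of 8 neuron markers, 1 was called higher and 3 lower in shLuc (median −0.41, and 1 higher, 2 lower and −0.48 after length adjustment). Their summed level was higher in shLuc, with 3887 to 5144 (median 4396) CPM in shLuciferase and 5798 to 6574 (median 6140) in shLuc. The median of Tubb3 alone, 484 and 3463 CPM, rose by more than that of the sum. The higher sum therefore rests on Tubb3 and does not hold for the other markers together. Rbfox3, the nuclear protein NeuN of postmitotic neurons, had 71.6 to 153 (median 103) CPM in shLuciferase and 87.4 to 124 (median 117) in shLuc, and the sets overlapped (log2 change 0.07 ± 0.17 SE, adjusted p = 0.75). Snap25, a SNARE protein of synaptic release, had 1216 to 1882 (median 1438) and 822 to 1355 (median 1109.8) CPM, overlapping too, but it passed the test as lower (log2 change −0.41 ± 0.12 SE, adjusted p = 0.00758). Tubb3, the neuronal beta-tubulin at chr8:123411424-123422015, had 399.9 to 534 (median 484) CPM in shLuciferase and 3177 to 4059.7 (median 3463) in shLuc (log2 change 2.89 ± 0.10 SE, adjusted p = 1.38e-13), a gap far wider than the spread within either set. Tubb3 was the 1 marker called higher. Tubb2b, a tubulin of migrating and growing neurons, had 249 to 391 (median 350.1) and 4062 to 5371 (median 4334) CPM (log2 change 3.75 ± 0.12 SE, adjusted p = 7.18e-14), and Actg1, cytoplasmic gamma-actin, 1041 to 1370.4 (median 1228) and 9166 to 12454 (median 10542) (log2 change 3.12 ± 0.10 SE, adjusted p = 7.18e-14), both with near-identical copies that may share reads. Map2, a microtubule protein of dendrites, was lower with 281 to 469 (median 339.5) against 77.2 to 98.9 (median 88.8) CPM (log2 change −2.03 ± 0.13 SE, adjusted p = 3.43e-10).

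Among 32 tested genes of immature neurons, 12 were called higher and 5 lower in shLuc, with a median log2 change of 0.68 against 0.05 over all tested genes (10 higher, 3 lower and 0.77 after length adjustment). Cd24a, a surface protein of young neurons named here after its values were seen, had 18.1 to 52.9 (median 42.1) and 233 to 330.2 (median 268) CPM (log2 change 2.82 ± 0.19 SE, adjusted p = 1.07e-09). The list was not uniform. Sox11, a transcription factor of newborn neurons, was lower (137 to 284 (median 232) against 72.9 to 133 (median 91.8) CPM, log2 change −1.18 ± 0.18 SE, adjusted p = 1.24e-05), as were the semaphorin receptor gene Plxna4 (log2 change −1.29 ± 0.15 SE, adjusted p = 7.4e-07) and Basp1, a growth cone protein (log2 change −1.29 ± 0.16 SE, adjusted p = 1.99e-06). After length adjustment Sox11 and Plxna4 differed by −0.34 and −0.27 and no longer met the 2-fold call, while Basp1 did (−1.91). Of 35 tested mature neuron genes, 2 were called higher and 16 lower (median −0.94). After length adjustment 1 was higher and 7 lower (median −0.41). The summed level of the mature neuron genes overlapped, with 10344 to 16028 CPM in shLuciferase and 9885 to 13550 in shLuc. Syp, synaptophysin of synaptic vesicles, had 809 to 1250.4 (median 925) CPM in shLuciferase and 131 to 389 (median 265) in shLuc (log2 change −1.94 ± 0.20 SE, adjusted p = 2.05e-07, −2.36 after adjustment).

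**Figure D3:**
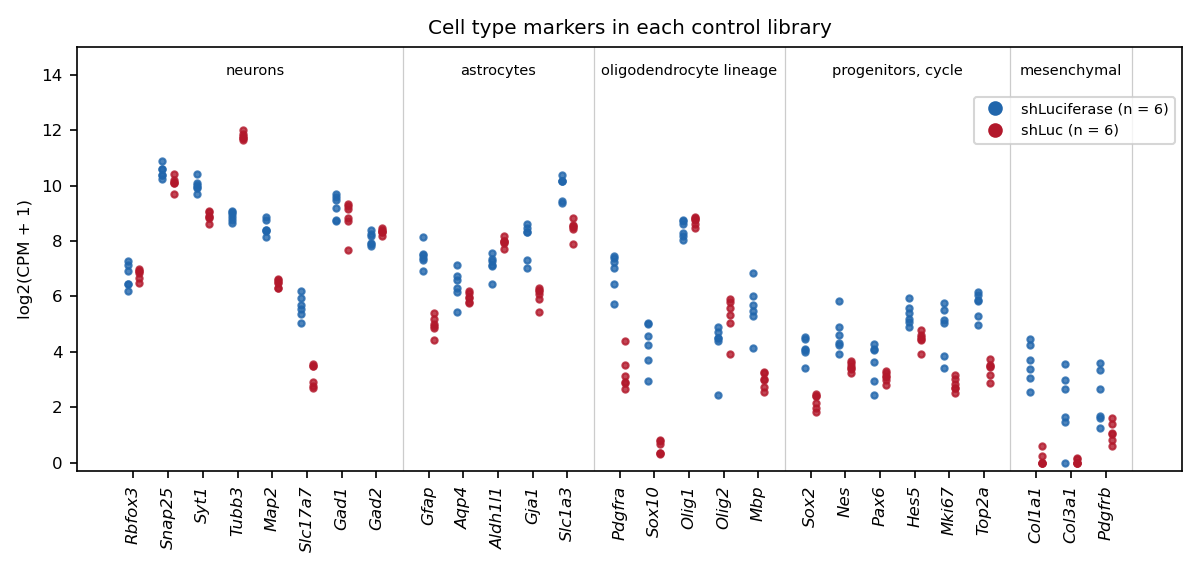
Level of cell type markers, log2(CPM + 1), in each of the 6 shLuciferase (blue) and 6 shLuc (red) libraries, grouped by the cell type they mark. Among the neuronal markers only Tubb3 was called 2-fold higher in shLuc, and Pdgfra, Sox10, Gfap and Col1a1 stand lower without overlap.

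Markers of other cell types differed as well, and in bulk RNA fewer cells of a type and less RNA per cell cannot be told apart. Among 13 tested oligodendrocyte-lineage genes, 1 was called higher and 8 lower in shLuc (median −1.20, and 0 higher, 7 lower and −1.52 after length adjustment). A further 11 of the 24 listed genes were below the filter. The summed level of the list overlapped, with 499 to 846 CPM in shLuciferase and 521 to 646 in shLuc, and Olig1 was a large part of it in both sets. Over all genes 15.3% were called higher and 18.5% lower. Sox10, a transcription factor of this lineage (chr15:79154908-79165240), had 6.70 to 32.1 (median 20.2) CPM in shLuciferase and 0.245 to 0.773 (median 0.444) in shLuc (log2 change −3.70 ± 0.34 SE, adjusted p = 4.2e-08). Pdgfra, the growth factor receptor of the precursors, had 52.4 to 175 (median 139) and 5.28 to 19.9 (median 7.03) CPM (log2 change −3.64 ± 0.31 SE, adjusted p = 1.29e-08). Their receptor Gpr17 (log2 change −3.62 ± 0.29 SE, adjusted p = 5.68e-09), the proteoglycan gene Cspg4 (log2 change −2.20 ± 0.30 SE, adjusted p = 5.41e-06) and Mbp, which encodes a myelin protein (log2 change −2.60 ± 0.33 SE, adjusted p = 1.72e-06), were lower too. Olig1 overlapped between the sets (264 to 429.6 (median 354) against 351 to 467 (median 439) CPM, log2 change 0.29 ± 0.13 SE, adjusted p = 0.0638, −0.27 after adjustment). Olig2 was the 1 member called higher (log2 change 1.02 ± 0.38 SE, adjusted p = 0.0258, 0.58 and no call after adjustment), its sets overlapped, and leaving out shLuciferase 1, shLuc 1, shLuc 2 or shLuc 8 each ended the call (adjusted p 0.0531 to 0.0665). Mog, a marker of mature myelin, was at or near 0 in both sets, with at most 0.171 CPM in shLuciferase and 0.47 in shLuc.

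Astrocyte genes split. Of 28 tested, 3 were called higher and 6 lower (2 and 7 after length adjustment), and the list median of 0.18 turned to −0.27 after length adjustment, to −0.15 with library totals and to −0.03 without shLuciferase 4. As measured, these calls were not far from the 15.3% higher and 18.5% lower over all genes. Gfap, the intermediate filament of astrocytes, had 119.9 to 279 (median 173) CPM in shLuciferase and 20.5 to 41.2 (median 30.1) in shLuc (log2 change −2.49 ± 0.19 SE, adjusted p = 3.04e-09). Gja1, the gap junction protein connexin 43, had 128 to 387 (median 319) and 42.7 to 78.1 (median 69.7) CPM (log2 change −1.97 ± 0.24 SE, adjusted p = 1.24e-06), and the glutamate transporter genes Slc1a3 (log2 change −1.49 ± 0.18 SE, adjusted p = 8.08e-07) and Slc1a2 (log2 change −1.69 ± 0.13 SE, adjusted p = 6.34e-09) were lower as well. After length adjustment Slc1a2 was short of 2-fold (−0.77). Aldh1l1, a folate enzyme used as a pan-astrocyte marker, was higher instead (87.2 to 189 (median 146) against 209 to 287 (median 249) CPM, log2 change 0.82 ± 0.15 SE, adjusted p = 0.00011), short of 2-fold. The water channel gene Aqp4 overlapped (log2 change −0.43 ± 0.21 SE, adjusted p = 0.0877, 0.26 after adjustment). Glul, glutamine synthetase, and Sparc, a secreted matrix protein, were called higher (log2 change 1.06 ± 0.14 SE, adjusted p = 4.77e-06 and log2 change 1.36 ± 0.13 SE, adjusted p = 5.09e-08), but not after length adjustment (0.71 and 0.75).

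Cell cycle, progenitor and mesenchymal genes were called lower more often than higher in shLuc, though most cell cycle genes were not called. The background over all genes was 15.3% higher and 18.5% lower. Of 38 tested cell cycle genes, 1 was called higher and 10 lower (median −0.41, and 1 higher, 9 lower and −0.46 after length adjustment). Top2a, the topoisomerase of dividing cells, had 30.5 to 70.5 (median 56.1) CPM in shLuciferase and 6.34 to 12.4 (median 10.1) in shLuc (log2 change −2.32 ± 0.23 SE, adjusted p = 7.4e-08). Mki67, the proliferation antigen, had 9.65 to 52.6 (median 32.97) and 4.66 to 8.05 (median 5.81) (log2 change −1.96 ± 0.34 SE, adjusted p = 7.23e-05), and Pcna, the replication clamp, which has a near-identical copy, was the 1 higher member (log2 change 1.09 ± 0.16 SE, adjusted p = 1.38e-05), but not after length adjustment (0.59). Of 17 tested progenitor genes, 3 were called higher and 6 lower (median −0.49, and 2 higher, 4 lower and −0.19 after length adjustment). Their summed level did not overlap and was higher in shLuc, from 1325 to 2088 (median 1583) CPM in shLuciferase and from 2283 to 2726 (median 2420) in shLuc. That rise lay mostly with Fabp7 (median 434 and 1090 CPM) and Vim (median 82.0 and 282 CPM). Sox2, a factor of neural stem cells and glia, was lower (9.77 to 22.3 (median 15.7) against 2.58 to 4.52 (median 3.85) CPM, log2 change −1.88 ± 0.25 SE, adjusted p = 3.37e-06), whereas the filament gene Vim (log2 change 1.78 ± 0.14 SE, adjusted p = 7.98e-09) and the lipid-binding protein gene Fabp7 (log2 change 1.43 ± 0.12 SE, adjusted p = 1.11e-08) were higher. Nes, the progenitor filament nestin, was lower (14.2 to 55.98 (median 21.03) against 8.40 to 11.6 (median 9.97) CPM), but not 2-fold after length adjustment (−0.50). Of 14 tested vascular and meningeal genes, 1 was higher and 7 were lower (median −1.02, and 0 higher, 7 lower and −0.99 after length adjustment). Their summed level ran from 165 to 265 CPM in shLuciferase and from 59.0 to 70.5 in shLuc, and Col1a1, a fibroblast collagen, had 4.78 to 21.2 (median 10.7) and 0 to 0.521 (median 0) CPM (log2 change −3.42 ± 0.34 SE, adjusted p = 8.38e-08). The basement membrane collagen gene Col4a1 (log2 change −2.81 ± 0.28 SE, adjusted p = 1.15e-07) and Fn1, fibronectin (log2 change −2.69 ± 0.50 SE, adjusted p = 0.000152), were lower as well. Microglial markers were nearly absent: 4 of 28 genes were tested, and Cx3cr1, Aif1, C1qa, P2ry12 and Ptprc had a median of 0 to 0.0854 CPM in both sets. None of 15 hindbrain and spinal Hox and related genes passed the filter.

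Regional and transmitter identity lists held calls in both directions, against 15.3% higher and 18.5% lower over all genes. Of 30 tested genes of glutamatergic forebrain neurons, 3 were called higher and 7 lower (5 and 5 after length adjustment). Of 35 GABAergic genes 7 were higher and 8 lower (8 and 7 after adjustment). Emx1, a transcription factor of the dorsal forebrain, had 3.22 to 9.61 (median 5.22) CPM in shLuciferase and 22.3 to 34.01 (median 28.2) in shLuc (log2 change 2.24 ± 0.24 SE, adjusted p = 3.21e-07). The cortical factors Fezf2 (log2 change 1.29 ± 0.22 SE, adjusted p = 5.69e-05) and Bcl11b (log2 change 1.10 ± 0.13 SE, adjusted p = 5.49e-07) were higher as well, and so was Dlx2, a factor of inhibitory neuron precursors (log2 change 1.90 ± 0.39 SE, adjusted p = 0.000371). After adjustment Fezf2 was short of 2-fold (0.80). Gad1 and Gad2, which make GABA, did not pass the test (log2 change −0.42 ± 0.24 SE, adjusted p = 0.135 and log2 change 0.26 ± 0.11 SE, adjusted p = 0.0506). Slc17a7, the vesicular glutamate transporter VGLUT1, had 32.1 to 71.7 (median 47.9) CPM in shLuciferase and 5.52 to 10.6 (median 8.43) in shLuc (log2 change −2.47 ± 0.23 SE, adjusted p = 5.16e-08). Calb2, the calcium-binding protein calretinin of some interneurons, was lower (log2 change −1.75 ± 0.14 SE, adjusted p = 5.69e-09). Of 18 tested striatal genes 5 were called higher and 1 lower, which turned to 2 higher and 3 lower after length adjustment. Their median of 0.19 was −0.10 with library totals, −0.02 with edgeR and −0.07 with DESeq2. The lower one as measured was the dopamine receptor gene Drd1 (log2 change −1.62 ± 0.32 SE, adjusted p = 0.000248).

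As measured, genes of excitability and transmission were lower more often than higher, on a background of 15.3% higher and 18.5% lower. After length adjustment the background was 11.7% higher and 12.8% lower, and the lower calls of glutamate receptor genes were near it. Of 36 tested glutamate receptor genes, 2 were called higher and 15 lower (median −0.67, but 2 higher, 5 lower and −0.28 after length adjustment). Grm5, a metabotropic glutamate receptor, had 110.2 to 202 (median 182) CPM in shLuciferase and 28.97 to 41.4 (median 34.96) in shLuc (log2 change −2.25 ± 0.16 SE, adjusted p = 1.14e-09, −1.46 after adjustment). The AMPA receptor gene Gria2 (log2 change −1.44 ± 0.23 SE, adjusted p = 3.09e-05) and the NMDA receptor gene Grin2b (log2 change −1.82 ± 0.14 SE, adjusted p = 2.82e-09) were lower as measured and short of the 2-fold call after adjustment (−0.64 and −0.75). Cnih3, an auxiliary subunit of AMPA receptors at chr1:181352628-181460641, was the clear exception with 34.4 to 68.9 (median 40.02) CPM against 286 to 335 (median 290.3) (log2 change 2.74 ± 0.16 SE, adjusted p = 1.23e-10).

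GABA-A receptor subunits differed in both directions. Gabra2, the alpha-2 subunit (chr5:70957597-71095849), had 11.7 to 38.4 (median 28.6) CPM in shLuciferase and 186 to 296 (median 248) in shLuc (log2 change 3.15 ± 0.21 SE, adjusted p = 8.28e-10, 3.94 after length adjustment). Gabra5, the alpha-5 subunit, was higher too (log2 change 1.17 ± 0.13 SE, adjusted p = 3.39e-07), but short of 2-fold after adjustment (0.84). Gabrb2, the beta-2 subunit, had 109.7 to 231 (median 142) and 28.5 to 48.7 (median 40.6) CPM (log2 change −1.87 ± 0.19 SE, adjusted p = 1.36e-07). Over the 15 tested GABA receptor genes, 3 were called higher and 5 lower (3 and 3 after length adjustment), and the median of −0.13 turned to 0.47 after length adjustment.

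Of 56 tested voltage-gated channel genes, 3 were called higher and 24 lower (median −0.80, and 2 higher, 14 lower and −0.39 after length adjustment). Their summed level was 2973 to 3478 CPM in shLuciferase and 1506 to 1672 in shLuc. Scn2a1, the sodium channel of axons, had 181 to 367 (median 250.4) and 40.98 to 56.98 (median 51.5) CPM (log2 change −2.32 ± 0.15 SE, adjusted p = 4.53e-10), and its auxiliary subunit Scn2b 376 to 537 (median 471) and 111 to 157 (median 122) (log2 change −1.87 ± 0.11 SE, adjusted p = 2.31e-10). Scn8a, a sodium channel of mature initial segments, differed by −1.23, and by −0.25 after adjustment, which is not a call. The potassium channel partner Kcnip1 was higher (log2 change 1.13 ± 0.16 SE, adjusted p = 1.01e-05), but short of 2-fold after adjustment (0.59). Of 55 synaptic vesicle genes 5 were higher and 19 lower (median −0.41, and 5 higher, 10 lower and −0.23 after adjustment). Their summed level overlapped between the sets, with 16677 to 22188 CPM in shLuciferase and 16828 to 18498 in shLuc. The calcium sensor gene Syt1 (log2 change −1.12 ± 0.12 SE, adjusted p = 1.91e-07) and Vamp2, a SNARE protein of the vesicle (log2 change −1.03 ± 0.10 SE, adjusted p = 1.22e-07), were lower, and Syt1 was short of 2-fold after adjustment (−0.51).

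Neuropeptide genes were called higher for 3 and lower for 4 of 30 (median −0.18, and 2 higher, 9 lower and −0.50 after adjustment). As measured, both shares were below the 15.3% higher and 18.5% lower over all genes. After adjustment the background was 11.7% higher and 12.8% lower. Pcsk1n, an inhibitor of prohormone cleavage, had 37.6 to 100.03 (median 76.4) CPM in shLuciferase and 244 to 352 (median 329.99) in shLuc (log2 change 2.27 ± 0.23 SE, adjusted p = 1.25e-07). Cck, cholecystokinin, had 239.6 to 545 (median 459) and 136 to 164 (median 154) CPM (log2 change −1.38 ± 0.17 SE, adjusted p = 1.53e-06), and Vip, a peptide of a class of interneurons, 11.1 to 34.5 (median 17.9) and 1.22 to 4.06 (median 3.14) (log2 change −2.41 ± 0.32 SE, adjusted p = 3.09e-06).

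Immediate early genes were lower in the shLuc controls, and here length adjustment widened the difference. Of 41 tested, 1 was called higher and 20 lower (median −0.81), and after adjustment 1 of 40 was higher and 24 were lower (median −1.36). Egr3, a zinc finger factor induced by firing (chr14:70077203-70082614), had 31.2 to 47.4 (median 39.03) CPM in shLuciferase and 2.17 to 3.47 (median 2.58) in shLuc (log2 change −3.40 ± 0.21 SE, adjusted p = 2.55e-10). Its relative Egr1 had 119 to 259 (median 169) and 31.5 to 39.97 (median 35.8) CPM (log2 change −2.24 ± 0.15 SE, adjusted p = 1.06e-09). Arc, a synaptic protein whose message moves into active dendrites, had 43.3 to 208 (median 99.6) and 21.9 to 33.5 (median 26.7) CPM (log2 change −1.86 ± 0.26 SE, adjusted p = 7.41e-06). The stress-inducible growth arrest gene Gadd45g was lower as well (log2 change −2.53 ± 0.22 SE, adjusted p = 1.75e-08). Ier2 was the 1 higher member as measured (0.292 to 11.998 (median 6.46) against 9.99 to 18.04 (median 13.7) CPM, log2 change 1.61 ± 0.48 SE, adjusted p = 0.00679). It was not called after length adjustment (0.90), and the 1 higher member there was Inhba, an activin subunit gene named after its values were seen. Fos, named after its values were seen like Egr3, Nr4a1, Npas4 and Junb, was lower by less than 2-fold (57.2 to 95.1 (median 76.8) against 35.2 to 57.6 (median 45.6) CPM, log2 change −0.70 ± 0.17 SE, adjusted p = 0.00202).

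The knockdown libraries did not repeat this for part of the group. Between shTet2 and Tet2 KD, 14 of 40 immediate early genes were called higher and 9 lower. Over all genes of that contrast 18.6% were higher and 22.6% lower, so the lower calls were near the background. A test added after the data were seen asked of every gene whether the change between experiments differed between knockdowns and controls, in 1 limma fit over the 24 libraries. It called 237 of 13361 genes at least 2-fold (1.77%, 126 or 0.943% more positive in the knockdowns and 111 or 0.831% more negative), and 15 of 42 immediate early genes, all 15 more positive in the knockdowns. Fos had 22.5 to 32.7 (median 26.9) CPM in shTet2 and 161 to 267 (median 211) in Tet2 KD, so that its change differed by 3.61 ± 0.23 SE, adjusted p = 5.19e-12. Nr4a1, a nuclear receptor induced by activity, had 70.4 to 99.6 (median 83.99) CPM in shLuciferase, 15.8 to 27.7 (median 21.9) in shLuc, 17.99 to 37.6 (median 27.2) in shTet2 and 57.7 to 89.5 (median 73.6) in Tet2 KD (difference of log2 changes 3.36 ± 0.24 SE, adjusted p = 8.77e-11). Npas4, a neuron-specific activity factor, differed by 3.21 ± 0.47 SE, adjusted p = 0.000162, and Junb, a partner of Fos, differed by 1.58 ± 0.35 SE, adjusted p = 0.0131. The change of Egr3 was −3.40 in both contrasts (SE of the difference 0.33, adjusted p = 1 by limma). The level of Nr4a1 in shLuc was below every shLuciferase library, and in Tet2 KD above every shTet2 library.

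**Figure D4:**
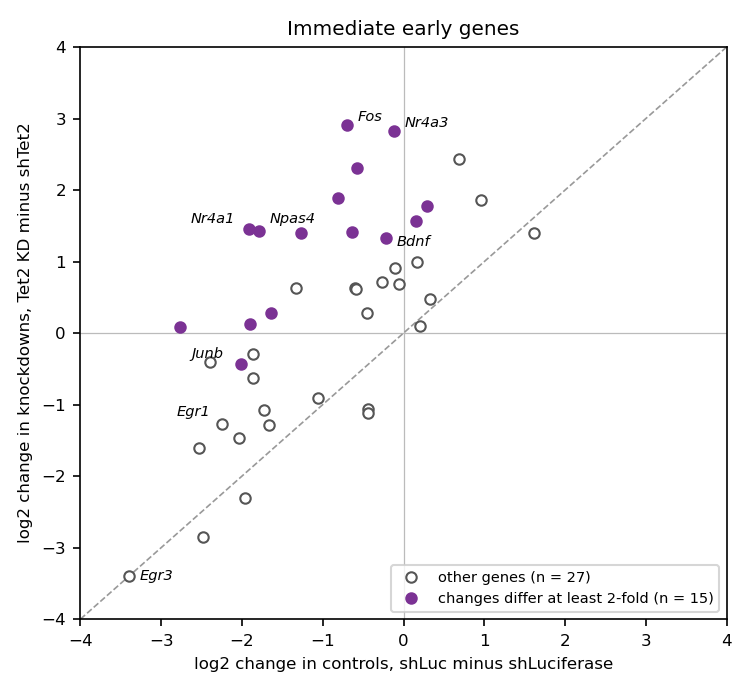
Log2 change of 42 immediate early genes between the experiments, in the controls (shLuc minus shLuciferase, horizontal) and in the knockdowns (Tet2 KD minus shTet2, vertical). Each point is 1 gene, the dashed line marks equal changes, and filled points are the 15 genes whose changes differed at least 2-fold by limma. All filled points lie above the line, Egr3 lies on it.

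Outside the immediate early group, Acan, the core protein of perineuronal nets, was lower in the shLuc controls (12.8 to 23.1 (median 18.05) against 2.58 to 7.86 (median 5.53) CPM, log2 change −1.56 ± 0.26 SE, adjusted p = 4.09e-05, −0.79 after length adjustment) and had 1.07 to 14.2 (median 5.20) CPM in shTet2 and 21.8 to 32.5 (median 28.2) in Tet2 KD (difference of log2 changes 3.95 ± 0.47 SE, adjusted p = 6.62e-06). Cd24a was higher in both contrasts, by 2.82 in the controls and 0.90 in the knockdowns (difference of log2 changes −1.91 ± 0.29 SE, adjusted p = 0.000186). Both were named after their values were seen.

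Of 41 tested genes that respond to amino acid shortage or to unfolded protein, 12 were called higher and 3 lower (median 0.53, but 6 higher, 3 lower and 0.16 after length adjustment). These pathways slow translation when amino acids run short or proteins misfold, and the factor ATF4 then drives amino acid synthesis and transport through CARE elements. The background for the calls was 15.3% higher and 18.5% lower over all genes (11.7% and 12.8% after length adjustment). Asns, asparagine synthetase (chr6:7675169-7693254), had 152 to 253 (median 221) CPM in shLuciferase and 727 to 1067 (median 866) in shLuc (log2 change 2.02 ± 0.13 SE, adjusted p = 4.33e-10, 1.43 after adjustment). Atf4 itself had 127 to 280.1 (median 140.5) and 337 to 402 (median 367) CPM (log2 change 1.22 ± 0.16 SE, adjusted p = 2.79e-06, 0.54 and short of 2-fold after adjustment). Slc7a11, the cystine transporter, was lower (23.8 to 67.9 (median 35.96) against 4.86 to 10.6 (median 5.74) CPM, log2 change −2.48 ± 0.27 SE, adjusted p = 2.48e-07).

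The RefSeq promoter table (GRCm38.p6) held 37 of these 41 genes, and the 250 bases before the start were searched on both strands for the CARE letters TGATGNAA. They were found in 7 of 37 (18.9%), against 237 of 10080 tested genes in the table (2.35%). The list was made of genes known for these responses, some of them through ATF4, so no conclusion was drawn from the higher share. The promoters of 4 of the 7 are shown, the genes of which passed the test, with each match in capitals. ATF4 is known to act on all of them.
Asns, chr6:7693210-7693459, minus strand: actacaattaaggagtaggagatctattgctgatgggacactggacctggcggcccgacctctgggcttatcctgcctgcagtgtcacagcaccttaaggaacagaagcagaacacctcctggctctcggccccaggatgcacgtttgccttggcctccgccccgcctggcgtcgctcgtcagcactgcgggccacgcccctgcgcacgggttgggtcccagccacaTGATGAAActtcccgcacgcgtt
Pycr1, chr11:120643749-120643998, minus strand: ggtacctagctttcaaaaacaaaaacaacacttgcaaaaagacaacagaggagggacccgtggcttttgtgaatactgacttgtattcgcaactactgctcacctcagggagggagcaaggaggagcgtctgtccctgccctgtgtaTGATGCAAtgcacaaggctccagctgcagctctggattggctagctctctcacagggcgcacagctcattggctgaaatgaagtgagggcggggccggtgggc
Chac1, chr2:119350992-119351241, plus strand: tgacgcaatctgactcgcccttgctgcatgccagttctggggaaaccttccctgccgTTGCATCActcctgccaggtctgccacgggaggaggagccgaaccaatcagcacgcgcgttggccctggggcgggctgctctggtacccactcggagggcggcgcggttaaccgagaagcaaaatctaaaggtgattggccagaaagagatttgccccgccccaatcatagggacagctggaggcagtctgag
Slc7a11, chr3:50443614-50443863, minus strand: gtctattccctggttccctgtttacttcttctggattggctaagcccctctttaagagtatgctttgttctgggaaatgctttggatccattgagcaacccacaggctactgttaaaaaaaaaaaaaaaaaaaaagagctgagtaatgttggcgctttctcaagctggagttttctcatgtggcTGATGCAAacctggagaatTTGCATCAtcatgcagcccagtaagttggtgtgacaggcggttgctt
Matches begin 23 bases before the start in Asns, 103 in Pycr1, 193 in Chac1 and 66 and 47 in Slc7a11. Pycr1, which makes proline, had 4.97 to 12.8 (median 10.1) CPM in shLuciferase and 14.4 to 25.6 (median 20.4) in shLuc (log2 change 1.05 ± 0.24 SE, adjusted p = 0.000987, 0.69 and short of 2-fold after length adjustment). Chac1, which breaks down glutathione, had 28.7 to 44.1 (median 34.8) and 44.3 to 89.2 (median 60.4) (log2 change 0.86 ± 0.18 SE, adjusted p = 0.000421), short of 2-fold, and did not pass the test after length adjustment (0.20, adjusted p = 0.34 by limma). As measured, Asns, Pycr1 and Chac1 were higher and Slc7a11 lower with the same letters before their starts. After adjustment Asns stayed 2-fold higher and Slc7a11 2-fold lower (−1.68). The other 3 genes with a match, Herpud1, Nupr1 and Vldlr, did not pass the test (adjusted p 0.204, 0.32 and 0.0961).

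For the immediate early genes, a CArG box, the element bound by serum response factor, was found in 2 of 27 promoters in the table (7.41%, against 1.41% of tested genes), those of Dusp5 and Egr2. The cAMP response element TGACGTCA was found in 2 of 27 (7.41%, against 3.17%). The table lists 5 promoters of Egr2, of which 4 hold the box and the one furthest upstream does not. One of the 4 is shown as that of a lower member, with its box in capitals. Egr2 had 6.34 to 43.2 (median 15.9) CPM in shLuciferase and 2.58 to 4.98 (median 4.14) in shLuc (log2 change −1.86 ± 0.34 SE, adjusted p = 0.00011).
Egr2, chr10:67537619-67537868, plus strand: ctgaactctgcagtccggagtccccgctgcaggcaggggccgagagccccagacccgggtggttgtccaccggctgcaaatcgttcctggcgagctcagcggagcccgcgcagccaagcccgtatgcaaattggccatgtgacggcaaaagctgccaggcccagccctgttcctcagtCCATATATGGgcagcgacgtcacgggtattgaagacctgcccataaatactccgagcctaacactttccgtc

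Cholesterol and fatty acid synthesis genes were called higher for 12 and lower for 4 of 33 members (median 0.68, and 14 higher, 1 lower and 0.59 after length adjustment). The background over all genes was 15.3% higher and 18.5% lower. Fdps, farnesyl diphosphate synthase, had 112 to 267 (median 168) CPM in shLuciferase and 712 to 898 (median 812) in shLuc (log2 change 2.19 ± 0.16 SE, adjusted p = 2.61e-09), and Fdft1, which commits its product to sterols, 122 to 259 (median 179) and 583 to 763 (median 696) (log2 change 1.92 ± 0.14 SE, adjusted p = 2.05e-09). Each has a near-identical copy. The desaturase gene Scd2 was lower (log2 change −1.71 ± 0.11 SE, adjusted p = 5.27e-10). Of 22 antioxidant and metallothionein genes 8 were higher and none lower (median 0.86, and 5 higher and 0.51 after adjustment). Sqstm1, an autophagy receptor (log2 change 1.06 ± 0.09 SE, adjusted p = 1.82e-08), and Gstp1, a glutathione transferase with near-identical copies (log2 change 1.60 ± 0.11 SE, adjusted p = 1.03e-09), were higher as measured and short of 2-fold after adjustment (0.61 and 0.81). Of 32 glycolysis and hypoxia genes 4 were higher and 6 lower (2 and 5 after adjustment), as measured near that background. Gapdh, the glycolytic enzyme often used as a reference gene, had 821 to 1835 (median 1055) CPM in shLuciferase and 3901 to 5114 (median 4532) in shLuc (log2 change 1.95 ± 0.15 SE, adjusted p = 5.18e-09), with many near-identical copies. Slc2a3, the neuronal glucose transporter, had 191 to 418 (median 295) and 27.5 to 80.2 (median 48.4) CPM (log2 change −2.55 ± 0.24 SE, adjusted p = 4.52e-08).

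Ribosomal protein genes differed mostly in one direction. Of 81 tested, 71 were called higher and none lower in shLuc (median 1.60), and after length adjustment 38 were higher and none lower (median 0.96). Their transcripts are short, with a median of 887 bases, and 63 of the 81 have near-identical copies. Rplp0, a stalk protein of the large subunit, had 235 to 393 (median 269.6) CPM in shLuciferase and 1520.05 to 1858 (median 1712) in shLuc (log2 change 2.60 ± 0.12 SE, adjusted p = 4.76e-12). Rpl3 had 189 to 287 (median 232) and 1141 to 1422 (median 1289) CPM (log2 change 2.46 ± 0.11 SE, adjusted p = 6.15e-12) and Rps2 41.3 to 192 (median 142) and 1275 to 1553 (median 1425) (log2 change 3.63 ± 0.27 SE, adjusted p = 2.88e-09). In the knockdown libraries 70 of 81 were called higher. Respiratory chain genes were called higher for 28 of 80 and lower for none (median 0.80), but after adjustment for only 6 of 79 (median 0.23). Atp5b, the catalytic subunit of ATP synthase, kept its call with 1501 to 1668 (median 1553) and 5291 to 7398 (median 6125) CPM (log2 change 1.96 ± 0.09 SE, adjusted p = 1.11e-11, 1.29 after adjustment), and Cox4i1, a subunit of cytochrome oxidase, did not (log2 change 1.15 ± 0.11 SE, adjusted p = 5.09e-08, 0.37 after adjustment).

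Long noncoding RNAs that stay in the nucleus were lower: 9 of 12 tested were called lower and 1 higher (median −1.67, and 6 lower, 1 higher and −0.98 after length adjustment). Malat1, a nuclear speckle RNA at chr19:5795690-5802672, had 1182 to 13056 (median 4959) CPM in shLuciferase and 213 to 544 (median 407) in shLuc (log2 change −3.54 ± 0.39 SE, adjusted p = 3.16e-07), with a wide spread within shLuciferase that still did not reach shLuc. Snhg11 (log2 change −2.37 ± 0.34 SE, adjusted p = 8.64e-06) and the imprinted antisense RNA Kcnq1ot1 (log2 change −2.68 ± 0.33 SE, adjusted p = 1.62e-06) were lower, and Meg3 overlapped between the sets (log2 change −1.46 ± 0.36 SE, adjusted p = 0.00184, −0.41 after adjustment). Rian, from the same imprinted domain as Meg3, was the 1 higher member (16.7 to 24.6 (median 17.5) against 78.8 to 144 (median 122) CPM, log2 change 2.55 ± 0.17 SE, adjusted p = 6.49e-10). Of 23 tested imprinted genes 2 were higher and 8 lower (3 and 6 after adjustment), against 15.3% and 18.5% over all genes. Ndn, necdin, a growth suppressor of postmitotic neurons, had 159 to 246 (median 205) and 1178 to 1639 (median 1287) CPM (log2 change 2.69 ± 0.12 SE, adjusted p = 4.76e-12).

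Y-linked messages were present in every library of both sets for Ddx3y, Kdm5d and Eif2s3y. Ddx3y had 10.3 to 34.2 (median 30.1) CPM in shLuciferase and 1.10 to 6.96 (median 2.94) in shLuc (log2 change −2.66 ± 0.35 SE, adjusted p = 3.44e-06), and the log2 changes of Kdm5d and Eif2s3y were −2.50 and −1.98, both past the test. Xist, the RNA of the inactive X chromosome, had 97.7 to 283 (median 158) and 65.8 to 146 (median 97.7) CPM (log2 change −0.73 ± 0.22 SE, adjusted p = 0.00805), with a log2 change of 0.16 after length adjustment. Both kinds of message were thus found in both sets, and the Y-linked ones were lower in shLuc relative to all genes.

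Tet2 is the gene both experiments targeted. It lies at chr3:133463679-133545139 on the minus strand and had 19.5 to 84.8 (median 53.8) CPM in shLuciferase and 39.9 to 60.7 (median 56.6) in shLuc, with overlapping sets (log2 change 0.09 ± 0.26 SE, adjusted p = 0.774). With only the deepest libraries, those with more than 10000000 reads (2 shLuciferase and 5 shLuc), its log2 change was −0.50 (adjusted p = 0.0343), and after length adjustment it was higher by 0.95 (adjusted p = 0.00109 by limma). In the knockdown libraries Tet2 had 37.1 to 77.6 (median 57.4) CPM in shTet2 and 10.5 to 35.2 (median 16.0) in Tet2 KD. The shTet2 range thus overlapped that of shLuciferase, and the Tet2 KD range lay below that of shLuc. Tet1 was lower (log2 change −0.62 ± 0.22 SE, adjusted p = 0.0196), but not without shLuciferase 5 (adjusted p = 0.0517), and its change turned to 0.32 after length adjustment. Tet3 had 57.5 to 82.2 (median 74.6) and 29.4 to 37.2 (median 32.7) CPM (log2 change −1.08 ± 0.14 SE, adjusted p = 2.2e-06), and −0.13 after adjustment. Of 29 genes of the DNA methylation machinery 4 were called higher and 9 lower (median −0.62, but 3 higher, 9 lower and −0.13 after adjustment). Over all genes 15.3% were called higher and 18.5% lower. Idh1, which makes the cosubstrate of TET enzymes, had 66.2 to 129 (median 98.1) and 332 to 452 (median 401) CPM (log2 change 2.08 ± 0.14 SE, adjusted p = 7.19e-10). Dnmt1, the maintenance methyltransferase, and Ogt, a sugar transferase that binds TET proteins, were lower (log2 change −1.80 ± 0.18 SE, adjusted p = 1.38e-07 and log2 change −1.96 ± 0.18 SE, adjusted p = 4.52e-08).

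**Figure D5:**
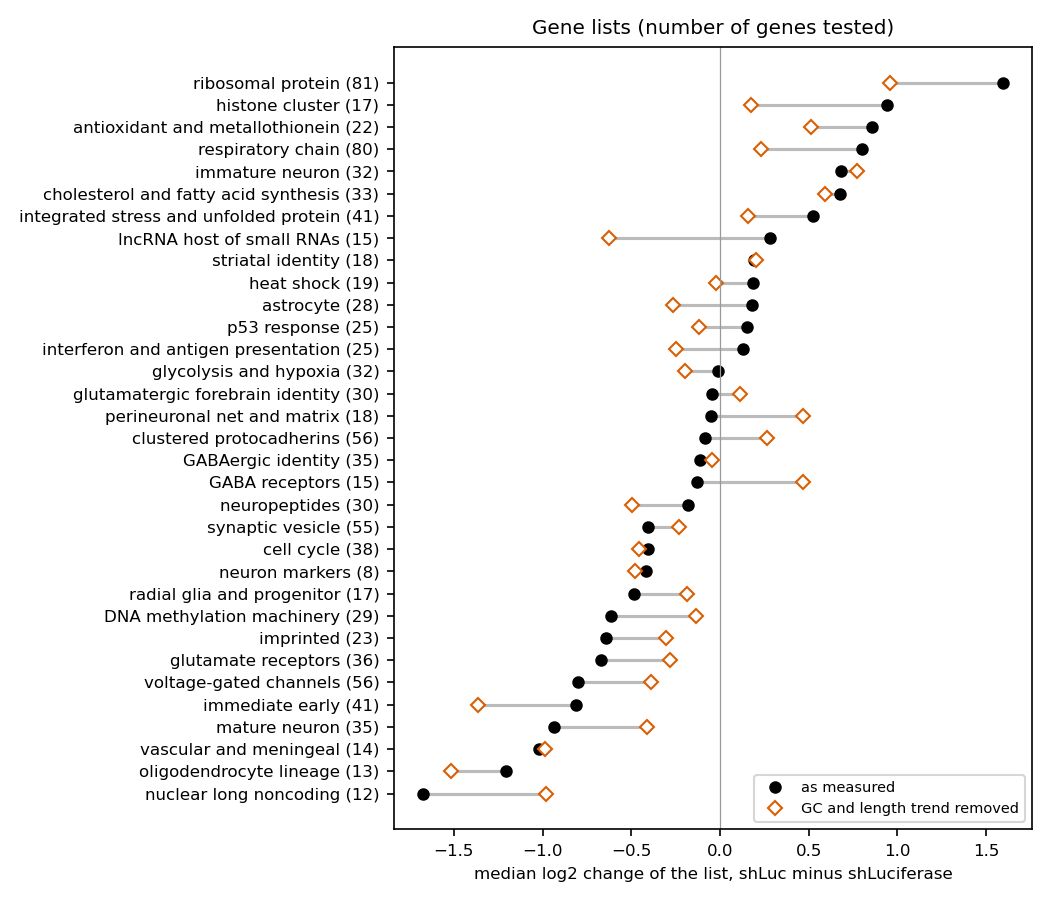
Median log2 change (shLuc minus shLuciferase) of each gene list with 8 or more tested members, as measured (filled circles) and after the trend on length and GC content was removed (open diamonds), with the number of tested genes in parentheses. Ribosomal protein genes stand highest at 1.60 and nuclear noncoding RNAs lowest at −1.67. Immediate early and oligodendrocyte-lineage genes move further from 0 when the trend is removed, and mature neuron, glutamate receptor and voltage-gated channel genes move toward it.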

How the data were processed

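The build was mm10, and the tools listed were STAR, RSEM and DESeq2, per the submitters' processing notes. Versions, annotation and strand setting are not given in the sources used here. The deposited signal per gene is a count divided by 1 size factor per library, per the file headers and the values: each is a whole multiple of the smallest nonzero value of its column within 0.01 reads (100% of values in each library). Reads were recovered by that division, Rn45s was left out, and both tables were joined by gene. CPM used trimmed-mean (TMM) factors over the 12 control libraries. Genes with a mean of 1 CPM or more were tested with limma 3.58.1 (trend) on log2(CPM + 1), two-sided. The call is an adjusted p under 0.05, and for lists also a 2-fold difference. edgeR 4.0.16, DESeq2 1.42.0, other scalings, filters and left-out libraries were alternatives. Columns of the second set name the group but not the sample, so they carry no pairing. Lengths, coordinates and near-identical stretches (300 bases at 97% identity, minimap2) came from GENCODE vM21 on GRCm38, matched by symbol for 23376 of 24411 genes, and promoters from RefSeq. On simulated counts of 13175 genes the test recovered 85% of 4-fold and 18% of 2-fold changes, by the adjusted p alone. Only 100 genes changed by each fold, and all genes had the same dispersion in both sets. In the data far more genes differed and the spread was unequal between the sets, so these shares are not the power of this comparison. Named genes were Tet1 to Tet3, the furthest and surest calls, the highest called members of each list and all defining markers. The furthest and surest were taken only among 2-fold calls without overlap between the sets. A few genes under this rule are not reported here. The members and lists were chosen with earlier results of these data known.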

Additional observations from a re-analysis of the deposited data

Results flagged for a closer look

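Of 240 sets of 6 values examined (the genes named in the text and 3 library features, each in both control sets), 14 had 1 library standing far from the other 5. Chance alone gives about 1 in 20. In shLuc, Raly was at 43.6 CPM in shLuc 1 (others 75.01 to 80.4), Dlx2 at 21.9 in shLuc 1 (28.7 to 31.6), Pcsk1n at 244 in shLuc 1 (324 to 352), Gad1 at 203 in shLuc 8 (424 to 649) and Slc1a2 at 112 in shLuc 2 (125 to 128). In shLuciferase, replicate 4 stood low for Panx1 (1.75 CPM, others 8.93 to 15.4), Drd1 (4.09, others 11.9 to 18.1) and Cd24a (18.1, others 37.6 to 52.9). Replicate 2 stood low for Sox11 (137, others 229 to 284) and Gabra2 (11.7, others 25.4 to 38.4) and high for Atf4 (280.1, others 127 to 167). Replicate 1 stood low for Eif3f (8.65, others 24.8 to 42.5) and Olig2 (4.46, others 20.2 to 28.9), and replicate 3 stood high for Glul (194, others 93.5 to 119.5). The 4 shallow shLuciferase libraries and the shallowest shLuc library account for 12 of the 14.

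For 14 named genes the change between experiments differed at least 2-fold between knockdowns and controls (limma, adjusted p under 0.05, n = 6 libraries in each of 4 groups). The difference of log2 changes (Tet2 KD minus shTet2, less shLuc minus shLuciferase) was 3.95 for Acan, 3.61 for Fos, 3.36 for Nr4a1, 3.21 for Npas4, 2.17 for Col1a1, 1.58 for Junb, 1.37 for Slc17a7, 1.19 for Rnf187 and 1.08 for Cck. It was −1.91 for Cd24a, −1.65 for Tet2, −1.38 for Ogt, −1.33 for Sox11 and −1.23 for Scn2b. For Tet2 itself, shTet2 overlapped shLuciferase, while every Tet2 KD library lay below every shLuc library.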

How the results depend on the processing

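No paired analysis was possible because the columns of the second set carry numbers that cannot be tied to the sample titles. The count of genes 2-fold higher in shLuc was 2026 and became 1059 with library totals. The count 2-fold lower was 2452 and became 1630 with the length and GC trend removed, an alternative chosen after seeing the data. Under the other alternatives both counts stayed within 1.5 times their value. Leaving out each library in turn gave 7519 to 8282 genes at the adjusted p alone, 4284 to 4622 at 2-fold, 1948 to 2102 higher and 2331 to 2575 lower. The genes shared with the knockdown contrast numbered 3581, with edgeR in both 3913 and with upper-quartile factors 3618. Of the named genes, 3 changed sign while past the test before or after the change: Tet1 (0.32) and Xist (0.16) after trend removal, and Tet2 (−0.50) with only the libraries of more than 10000000 reads, also chosen after seeing the data. The cause was not tested. Rbfox3, Olig1, Gad2, Aqp4, Csf1r and, with other settings, Tet2 changed sign under at least 1 alternative without passing the test on either side. Among 2556 values with 1 library left out, 21 lost and 10 gained the adjusted p, and only Tet2 and Rbfox3, which passed in none of them, changed sign. The 4 shLuciferase libraries with fewest reads limit what can be said of genes at a few CPM.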
